A study of Mus musculus with 15 samples.

Results

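The receptors that bind catecholamines and the proteins that clear them were examined in mouse heart through 7 genes, all of which were present among the 17447 genes of the count table. They were chosen by name. Adrb1, Adra1a and Adra1b encode the β1-, α1A- and α1B-adrenoceptors, Drd2 the dopamine D2 receptor, Maoa and Maob the monoamine oxidases A and B, and Slc22a3 the extraneuronal monoamine transporter. All 7 genes passed the filter on low counts that left 13021 genes to test.

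Noradrenaline from sympathetic nerve endings and circulating adrenaline act on cardiomyocytes through these receptors. β1-adrenoceptors couple to Gs and raise cAMP, which activates protein kinase A and, through it, the calcium channels and pumps that set the force and rate of contraction. α1-adrenoceptors couple to Gq, and the D2 receptor couples to Gi, which lowers cAMP. The signal ends when catecholamines are taken back into nerve endings, or are taken up by other cells through transporters such as that encoded by Slc22a3 and broken down by enzymes such as the monoamine oxidases. Renalase (RNLS), the protein altered in this study, was proposed to degrade catecholamines as well, and these genes were therefore compared across the groups.

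Hearts of 15 male C57BL/6J mice were sequenced, 3 for each of 5 groups. They were taken 18 weeks after surgery, which the mice had as young adults. WTSHAM were wild-type mice after a sham operation. WTCKD and KOCKD were wild-type and TALEN-made Rnls knockout mice with subtotal nephrectomy, a model of chronic kidney disease (CKD), that received the control labelled vector. WTCKD + RNLS and KOCKD + RNLS had the same surgery and received AAV9-cTnT-RNLS, in which the cardiac troponin T promoter restricts the transgene to cardiomyocytes. All 4 CKD groups thus carried a virus or a vector, which the labels do not give for the sham group, and no sham-operated knockout was among these libraries. The total of counted reads ran from 10480788 to 13424078 by library. The labelled tissue was checked by 6 cardiomyocyte markers, whose summed level lay between 74648 and 102322 CPM (read counts scaled for library size) in the 15 libraries. These are bulk samples, so that fewer cells of a type and less RNA per cell cannot be told apart.

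Several libraries stood apart in ways that bear on the comparisons below. Arntl, a core gene of the circadian clock, was measured at 1.34 to 2.45 CPM in the 6 libraries with the RNLS virus and at 21.4 to 34.0 CPM in 7 of the other 9, while WTSHAM replicate 1 (7.67 CPM) and KOCKD replicate 3 (9.99 CPM) lay between. Of 14 clock genes, 8 were higher and 3 lower in WTCKD + RNLS than in WTCKD, and 8 were higher and 2 lower in KOCKD + RNLS than in KOCKD. Myl7, the atrial myosin light chain, was at 310.5 CPM in WTSHAM replicate 3, at 419.8 and 478.1 CPM in WTCKD replicates 1 and 2, and at 805.2 CPM in KOCKD replicate 3. It was below 0.75 CPM in the 3 KOCKD + RNLS libraries. Results without the libraries set apart by either gene are therefore given below. Since all 6 virus libraries had less Arntl than every other library, the virus and the clock state cannot be told apart here. Leaving out the 2 libraries with intermediate Arntl does not separate them, and the part of these features in the results was not otherwise tested.

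**Figure D1:**
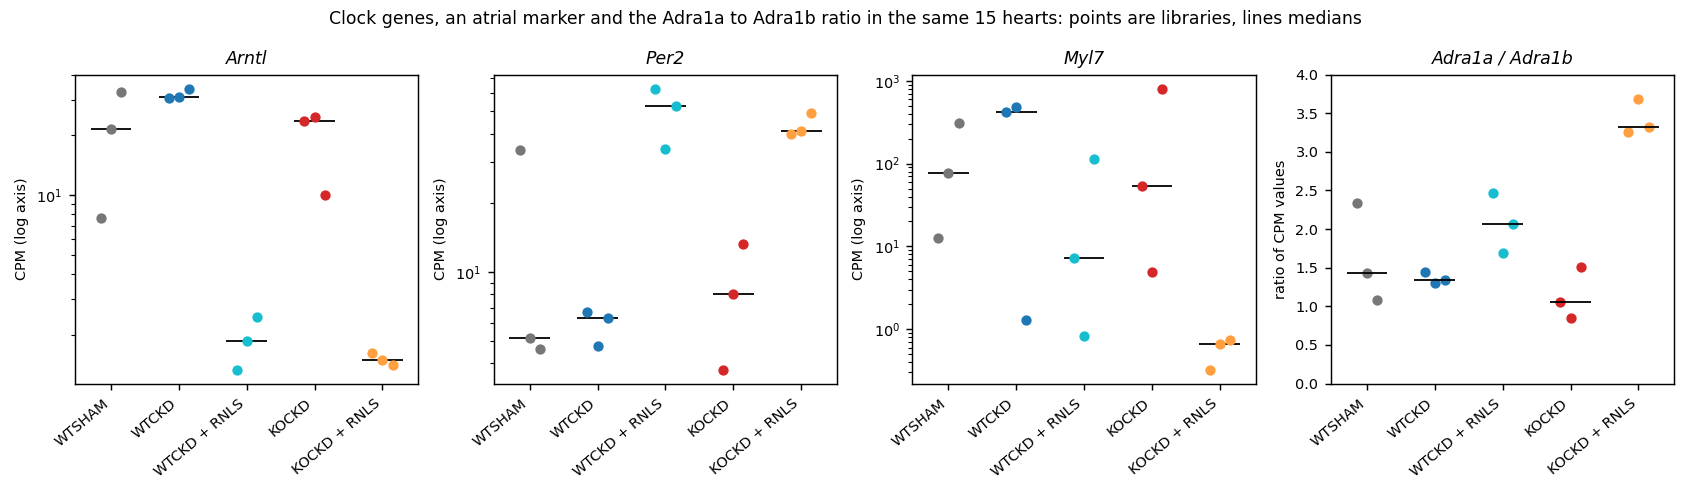
CPM of the clock genes Arntl and Per2 and the atrial gene Myl7 (log axes) and the ratio of Adra1a to Adra1b CPM (linear axis) in the 15 hearts. Points are libraries and lines are group medians. Arntl was at 1.34 to 2.45 CPM in the 6 virus-treated libraries, and the ratio was at 3.25 to 3.68 in KOCKD + RNLS.

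Levels of different genes were compared in the deposited FPKM values, which divide by gene length. Maob was the most abundant of the 7, with a median of 36.2 FPKM over the 15 libraries, followed by Adra1b (10.5), Adrb1 (7.20), Adra1a (4.42), Slc22a3 (3.70), Maoa (1.6) and Drd2 (1.09). Maob was above Adra1b in 15 of 15 libraries, and the ranges of the 2 genes did not overlap. Every other pair of neighbours in this order had overlapping ranges. Adra1b was above Adrb1 in 14 libraries, Adrb1 above Adra1a and Slc22a3 above Maoa in all 15, but Adra1a above Slc22a3 in only 11 and Maoa above Drd2 in only 11. The place of Adra1a rests on a long gene model of 15766 bases, against 2412 to 4161 bases for the other 6 genes.

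**Figure D2:**
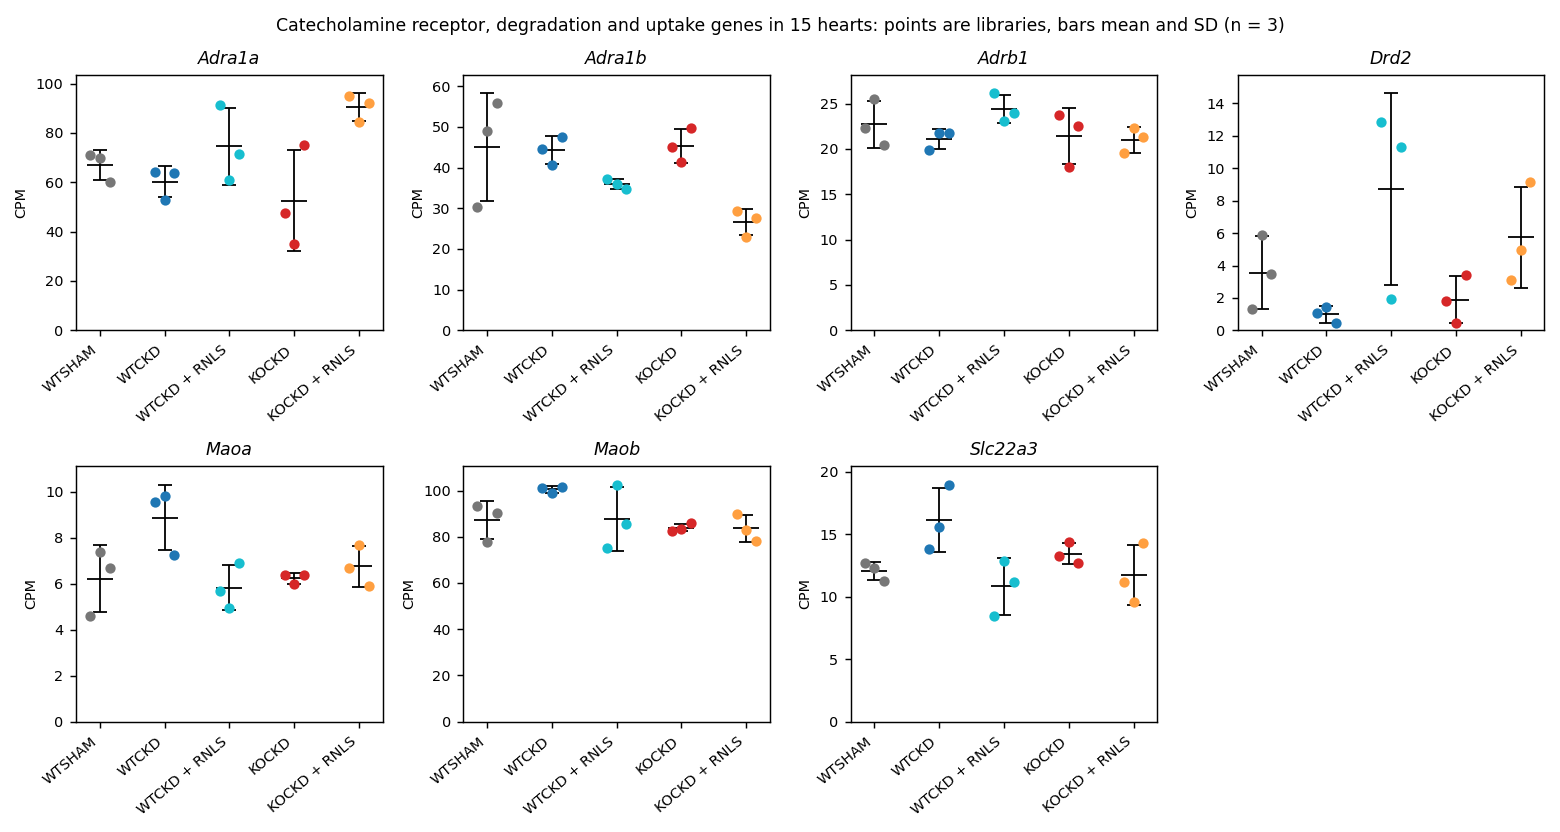
CPM of the 7 genes in each of the 15 libraries (linear axes from 0), by group. Points are libraries, and bars give the mean and SD of 3. In KOCKD + RNLS, Adra1a was above and Adra1b below every KOCKD library.

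Each gene was tested for any difference among the 5 groups and then in the comparisons of the design. In a joint test of all groups (edgeR's quasi-likelihood test, Benjamini-Hochberg adjustment over all 13021 genes), 22.2% of the genes tested had an adjusted p under 0.05. Of the 7 genes, 2 did, Adra1b (adjusted p = 0.0140) and Drd2 (adjusted p = 0.0286). Adra1a was just outside (0.0554), followed by Slc22a3 (0.0915), Maoa (0.121), Maob (0.196) and Adrb1 (0.453). Without the 4 libraries with the most Myl7, Adra1b had an adjusted p of 0.0761 and Drd2 of 0.112, whereas Adra1a had 0.0169. The joint call of Drd2 was also lost without any 1 of WTCKD replicates 1 and 3 and WTCKD + RNLS replicates 1 and 3 (adjusted p from 0.0567 to 0.0680), and that of Adra1b without KOCKD + RNLS replicate 2 (0.0705). Without WTCKD + RNLS replicate 2, 5 of the 7 genes passed, with Adra1a, Maob and Slc22a3 added, while the count over all genes rose from 2887 to 3727.

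The β1-adrenoceptor varied least among the receptors. Adrb1, which is on chromosome 19 (56796862 to 56799352, plus strand, mm9), was measured at 22.3, 25.5 and 20.4 CPM in WTSHAM, at 19.9, 21.8 and 21.8 CPM in WTCKD and at 26.1, 23.1 and 24.0 CPM in WTCKD + RNLS. It was at 23.8, 18.0 and 22.5 CPM in KOCKD and at 19.5, 22.3 and 21.3 CPM in KOCKD + RNLS. The 3 WTCKD + RNLS libraries were above the 3 WTCKD libraries, and in the other comparisons the groups overlapped. The fitted log2 changes were −0.10 (95% interval −0.35 to 0.15) in WTCKD against WTSHAM, 0.21 (−0.04 to 0.46) in WTCKD + RNLS against WTCKD, −0.03 (−0.28 to 0.22) in KOCKD + RNLS against KOCKD and 0.02 (−0.23 to 0.27) in KOCKD against WTCKD. None passed the adjusted threshold, and the largest change inside any of these intervals was 0.46 on the log2 scale, at a depth of 193 to 339 reads a library.

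The 2 α1-adrenoceptors moved in opposite directions in the knockout hearts with the RNLS virus. Adra1a, on chromosome 14 (67254088 to 67390005, plus strand, mm9), was at 47.5, 35.1 and 75.2 CPM in KOCKD and at 95.1, 84.4 and 92.0 CPM in KOCKD + RNLS. It was at 71.1, 70.0 and 60.0 CPM in WTSHAM, at 64.1, 53.0 and 63.7 CPM in WTCKD and at 91.5, 60.8 and 71.6 CPM in WTCKD + RNLS. The KOCKD + RNLS libraries were all above the KOCKD libraries, of which replicate 3 was the highest and lay above the 3 WTCKD libraries. Adra1a rose in KOCKD + RNLS against KOCKD by 0.78 on the log2 scale (SE 0.20, adjusted p = 0.0176, edgeR's quasi-likelihood test). In WTCKD + RNLS against WTCKD the groups overlapped and the change was 0.31 (SE 0.20, adjusted p = 0.425).

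Adra1b, on chromosome 11 (43588108 to 43714712, minus strand, mm9), was at 45.0, 41.5 and 49.8 CPM in KOCKD and at 29.2, 22.9 and 27.7 CPM in KOCKD + RNLS. It was at 30.3, 49.0 and 55.8 CPM in WTSHAM, at 44.5, 40.7 and 47.6 CPM in WTCKD and at 37.1, 35.9 and 34.7 CPM in WTCKD + RNLS. All 3 KOCKD + RNLS libraries were below those of every other group. The first WTSHAM library, the one with the intermediate clock gene level, was the lowest outside that group. Adra1b fell in KOCKD + RNLS against KOCKD by 0.77 on the log2 scale (SE 0.17, adjusted p = 0.00718, edgeR). In the wild-type hearts the 3 libraries with the virus were also below the 3 without, with a log2 change of −0.30 (SE 0.16, adjusted p = 0.322).

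Markers of several cell types moved in KOCKD + RNLS against KOCKD as well. Of 6 cardiomyocyte markers 2 rose, Myh6 (0.52, SE 0.08, adjusted p = 0.00217) and Ryr2, and the sum of the 6, Myh6 being the most abundant, was 77173, 82454 and 77182 CPM in KOCKD and 91019, 88328 and 87812 CPM in KOCKD + RNLS. The others went the other way without passing, Tnnt2 at −0.05, Tnni3 at −0.19, Actc1 at −0.10 and Myl2 at −0.21. The median log2 change of the 6 was −0.07. Of 5 fibroblast markers 1 fell, Col1a1 (−1.10, SE 0.26, adjusted p = 0.0124), and the sum, Dcn being the most abundant, was 958, 755 and 746 CPM against 776, 692 and 716 CPM. By direction alone 2 of the 5 fibroblast markers were higher, without passing, and the median log2 change of the 5 was −0.09. Of 5 macrophage markers 1 fell, Lyz2 (−0.77, SE 0.16, adjusted p = 0.00599), and the sum, Lyz2 being the most abundant, was 275, 284 and 230 CPM against 211, 161 and 165 CPM. Cd163 went the other way at 0.51, and Cd68, Adgre1 and Csf1r were at −0.56, −0.48 and −0.17, none of which passed. Also lower were 3 of 4 atrial, 2 of 4 Schwann cell and 1 of 5 endothelial markers, and 1 of 7 markers of pericytes and smooth muscle was higher. The summed cardiomyocyte and macrophage levels did not overlap between the groups, whereas the fibroblast levels did. No marker of these 3 lists was without a read, and the part of these cell types in the α1-adrenoceptor results was not tested.

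In KOCKD + RNLS against KOCKD, 16.1% of all genes tested had an adjusted p under 0.05, 9.05% higher and 7.04% lower, and in 40.6% of them the groups did not overlap. Of the 7 genes, 1 was higher, 1 was lower and in 2 the groups did not overlap. The difference between the genotypes was tested as an interaction, which no gene passed at an adjusted p under 0.05 (0% of those tested, against 2288 genes at an unadjusted p under 0.05 and 374 at an adjusted p under 0.05 by DESeq2). The effect of the virus was larger in the knockout by 0.47 for Adra1a (SE 0.28, unadjusted p = 0.116, adjusted p = 0.408) and lower by −0.47 for Adra1b (SE 0.23, unadjusted p = 0.0615, adjusted p = 0.307), so that neither was shown to differ between the genotypes.

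The fall of Adra1b kept an adjusted p under 0.05 under each of the 14 alternative settings tried, from −0.85 to −0.67 on the log2 scale. The rise of Adra1a did not. It lost the call without KOCKD replicate 1 (adjusted p = 0.0566), without KOCKD replicate 2 (0.56 on the log2 scale, adjusted p = 0.0704) and without KOCKD + RNLS replicate 1 (adjusted p = 0.0539), and when a trend on gene length was removed from each library (0.44, adjusted p = 0.178). It was larger without the 4 libraries with the most Myl7 (1.14) and without the 2 libraries with intermediate Arntl (1.13, adjusted p = 0.000872), 1 of which, KOCKD replicate 3, is in both sets. That library had the highest Adra1a of the KOCKD group (75.2 CPM).

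Gene length moved with the whole of this comparison. Among the 4215 tested genes with a model of over 5000 bases the median log2 change in KOCKD + RNLS against KOCKD was 0.21, and 22.3% of them rose while 1.54% fell. Among the 2688 genes of up to 2000 bases the median was −0.26, and 0.484% rose while 20.5% fell. The model of Adra1a is longer than that of 97.3% of the genes tested, and that of Adra1b, with 3882 bases, is longer than 53.8%. In WTCKD + RNLS against WTCKD the medians of the long and the short genes were 0.04 and 0.01. They were −0.09 and 0.07 in WTCKD against WTSHAM, −0.10 and 0.13 in KOCKD against WTCKD and 0.19 and −0.25 for the interaction, beside which the interaction of 0.47 for Adra1a stands. The part that length played in the rise of Adra1a was not tested beyond the length offsets.

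The ratio of Adra1a to Adra1b within a library, a measure chosen after the values were seen and therefore given without a test, was 3.42 ± 0.23 (SD, n = 3) in KOCKD + RNLS and 1.14 ± 0.34 in KOCKD in CPM. It was 1.62 ± 0.65 in WTSHAM, 1.36 ± 0.07 in WTCKD and 2.07 ± 0.39 in WTCKD + RNLS. The lowest KOCKD + RNLS library (3.25) was above the highest library of the other groups (2.46). Per length, in FPKM, Adra1a remained below Adra1b in all 15 libraries, with ratios from 0.209 to 0.907.

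**Figure D3:**
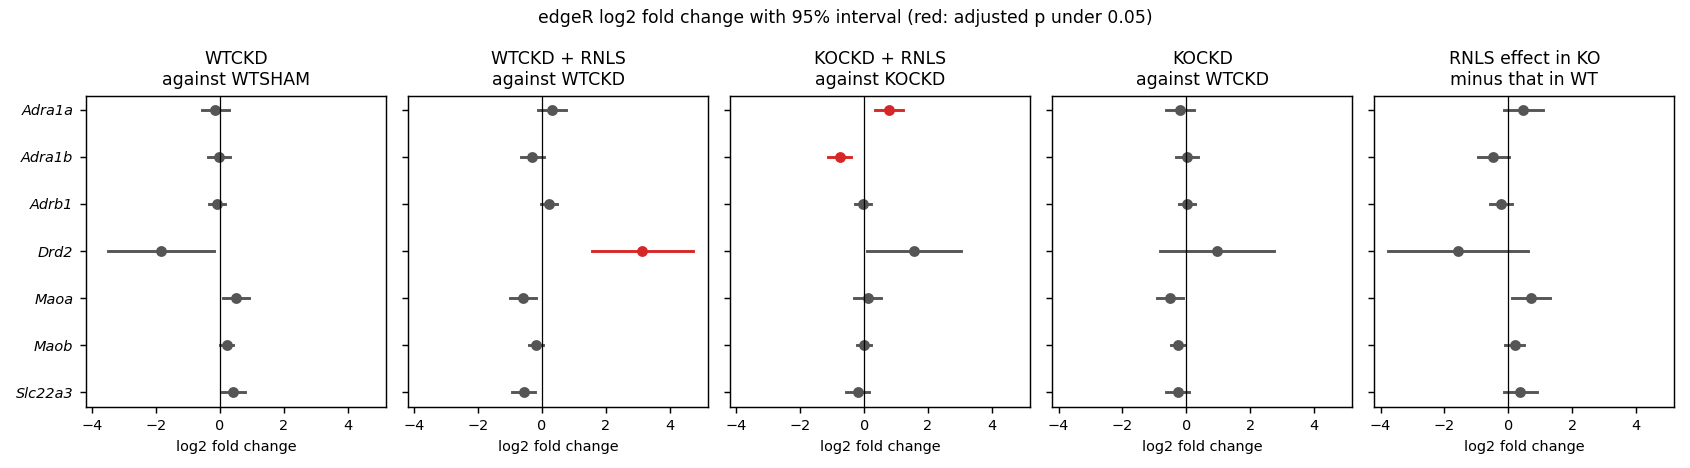
Log2 fold changes of the 7 genes with 95% intervals in 5 comparisons (edgeR, all 15 libraries). Red marks an adjusted p under 0.05, which Drd2 reached in WTCKD + RNLS against WTCKD (3.13), and Adra1a (0.78) and Adra1b (−0.77) in KOCKD + RNLS against KOCKD.

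The dopamine D2 receptor gene was the least abundant and the most variable. Drd2, on chromosome 9 (49148732 to 49216282, plus strand, mm9), was at 1.10, 1.47 and 0.43 CPM in WTCKD, which is 13, 16 and 5 reads. In WTCKD + RNLS it was at 12.9, 1.95 and 11.3 CPM, or 154, 21 and 148 reads. It was at 1.33, 5.86 and 3.46 CPM in WTSHAM, at 1.84, 0.47 and 3.38 CPM in KOCKD and at 3.09, 4.96 and 9.18 CPM in KOCKD + RNLS. All 3 WTCKD + RNLS libraries lay above the WTCKD libraries, 2 of them far above and replicate 2 only just. The biological coefficient of variation that edgeR estimated was 0.562 for Drd2, against 0.0924 to 0.173 for the other 6 genes.

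Drd2 rose in WTCKD + RNLS against WTCKD by 3.13 on the log2 scale (SE 0.75, 95% interval 1.55 to 4.72, adjusted p = 0.0259, edgeR). In this comparison 4.47% of all genes passed, 2.19% higher and 2.28% lower, and the groups did not overlap in 21.2%. Of the 7 genes 1 passed, Drd2, and in 5 the groups did not overlap (Adrb1, Adra1b, Drd2, Maoa and Slc22a3). In KOCKD + RNLS against KOCKD the groups overlapped and the log2 change of Drd2 was 1.56 (SE 0.69, unadjusted p = 0.0394, adjusted p = 0.136). The interaction was −1.58 (SE 1.04, adjusted p = 0.454), which does not show a difference between the genotypes. The call in wild-type hearts was lost without any 1 of WTCKD replicates 1, 2 and 3 or WTCKD + RNLS replicates 1 and 3 (2.74 to 3.51 on the log2 scale, adjusted p from 0.0691 to 0.0914). It was also lost without the 4 libraries with the most Myl7 (4.34, adjusted p = 0.30), which leaves 1 WTCKD library that is assumed to vary like the other groups.

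Transcripts of red blood cells moved with Drd2 in the same comparison, where 1 of 5 erythrocyte markers, Hbb-bs, rose (2.72, SE 0.75, adjusted p = 0.0494, edgeR). The summed level of the 5, of which Hbb-bs was the most abundant and none was without a read, was 38.0, 107 and 46.4 CPM in WTCKD and 527, 476 and 217 CPM in WTCKD + RNLS. The sums were 625, 462 and 68.5 CPM in WTSHAM, 51.1, 130 and 375 CPM in KOCKD and 73.6, 179 and 293 CPM in KOCKD + RNLS. In WTCKD + RNLS replicate 2, where Drd2 was low, the erythrocyte sum was high. The part of these transcripts in the Drd2 result was not tested.

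The sequences before the start of transcription are shown for Adra1b and Drd2, the genes that passed the joint test. They are the 250 bases upstream of each RefSeq start, on build GRCm38.p6 and not on the build of the gene positions above, and capitals mark the GC box (GGGCGG on either strand), a site for Sp1-type factors. RefSeq lists 2 starts for Adra1b, chr11:43901238-43901487 and chr11:43836490-43836739 on the minus strand, and 1 for Drd2, chr9:49340153-49340402 on the plus strand.
Adra1b, outer start: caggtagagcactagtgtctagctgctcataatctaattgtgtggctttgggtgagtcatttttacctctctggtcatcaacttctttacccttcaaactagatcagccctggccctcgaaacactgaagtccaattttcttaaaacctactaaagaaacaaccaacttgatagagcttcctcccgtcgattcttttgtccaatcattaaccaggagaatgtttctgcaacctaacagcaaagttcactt
Adra1b, inner start: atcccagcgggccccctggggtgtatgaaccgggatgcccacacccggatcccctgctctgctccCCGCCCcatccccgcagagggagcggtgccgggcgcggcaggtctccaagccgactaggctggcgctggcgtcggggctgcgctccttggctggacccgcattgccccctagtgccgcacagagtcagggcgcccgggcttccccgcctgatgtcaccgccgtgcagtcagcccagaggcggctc
Drd2: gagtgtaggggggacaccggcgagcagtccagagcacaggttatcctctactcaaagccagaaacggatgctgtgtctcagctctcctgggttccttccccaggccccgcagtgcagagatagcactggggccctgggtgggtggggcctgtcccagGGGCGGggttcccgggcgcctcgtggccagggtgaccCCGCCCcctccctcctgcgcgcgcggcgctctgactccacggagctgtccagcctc
The 2 Adra1b windows differ in composition, with 3 CpG dinucleotides and 41.6% G + C in the outer and 22 and 72.8% in the inner, against a median of 6 CpG over the 32851 windows of this length. The outer window holds no GC box and the inner 1, while Drd2 holds 2, and a GC box is found in 32.7% of all windows. Neither the E-box CACGTG, which clock proteins bind (6.02% of all windows), nor the full cAMP response element TGACGTCA (1.55%) occurs in any of the 3, and the count table does not separate reads by start site.

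The monoamine oxidases lie next to each other on the X chromosome (Maoa at 16196824 to 16264944 on the plus strand, Maob at 16286408 to 16394492 on the minus strand, mm9). Maoa, which prefers noradrenaline and serotonin, was at 4.59, 7.37 and 6.70 CPM in WTSHAM, at 9.55, 9.83 and 7.23 CPM in WTCKD and at 5.67, 4.92 and 6.89 CPM in WTCKD + RNLS. It was at 6.39, 5.96 and 6.36 CPM in KOCKD and at 6.66, 7.69 and 5.90 CPM in KOCKD + RNLS. WTCKD thus had the highest mean, all of its libraries being above those of WTCKD + RNLS and KOCKD, with 1 below the highest library of WTSHAM and of KOCKD + RNLS. The log2 changes of Maoa were 0.51 (SE 0.19, unadjusted p = 0.0186, adjusted p = 0.185) in WTCKD against WTSHAM and −0.60 (SE 0.20, unadjusted p = 0.00747, adjusted p = 0.0958) in WTCKD + RNLS against WTCKD. These comparisons share the 3 WTCKD libraries, and neither passed after adjustment. In KOCKD + RNLS against KOCKD the change was 0.12 (SE 0.20), and the interaction of 0.71 (SE 0.28, unadjusted p = 0.0208, adjusted p = 0.209) did not pass either.

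Maob, which encodes the more abundant of the pair by the FPKM medians above, varied least of the 7, with its highest library at 1.36 times the lowest. It was at 93.3, 77.7 and 90.1 CPM in WTSHAM, at 101, 98.9 and 102 CPM in WTCKD and at 75.1, 102.5 and 85.4 CPM in WTCKD + RNLS. It was at 82.6, 83.5 and 85.9 CPM in KOCKD and at 90.0, 83.0 and 78.3 CPM in KOCKD + RNLS. The WTCKD libraries were above all libraries of WTSHAM and KOCKD. The log2 changes were 0.21 (SE 0.10, adjusted p = 0.298) in WTCKD against WTSHAM, −0.20 (SE 0.10, adjusted p = 0.292) in WTCKD + RNLS against WTCKD, −0.26 (SE 0.10, unadjusted p = 0.0209, adjusted p = 0.461) in KOCKD against WTCKD and −0.004 in KOCKD + RNLS against KOCKD, with an interval from −0.22 to 0.21. Without WTCKD + RNLS replicate 2, the one library of its group at the WTCKD level, Maob passed in WTCKD + RNLS against WTCKD (−0.34, adjusted p = 0.0327).

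Slc22a3, on chromosome 17 (12612838 to 12700570, minus strand, mm9), had its highest wild-type values in WTCKD. It was at 12.7, 12.3 and 11.3 CPM in WTSHAM, at 13.9, 15.6 and 19.0 CPM in WTCKD and at 8.43, 12.9 and 11.2 CPM in WTCKD + RNLS, without overlap between WTCKD and either other group. In the knockout it was at 13.3, 14.3 and 12.7 CPM without and at 11.2, 9.59 and 14.3 CPM with the RNLS virus, and these groups overlapped. The log2 changes were 0.42 (SE 0.17, unadjusted p = 0.0247, adjusted p = 0.207) in WTCKD against WTSHAM and −0.58 (SE 0.17, unadjusted p = 0.00385, adjusted p = 0.0673) in WTCKD + RNLS against WTCKD. The latter passed by DESeq2 (adjusted p = 0.0434) and without WTCKD + RNLS replicate 2 (−0.73, adjusted p = 0.0294). In the same comparison 3 of 5 endothelial markers fell (Pecam1, Cdh5 and Kdr). The sum of the 5, Kdr being the most abundant and none without a read, was 1221, 1145 and 1323 CPM in WTCKD and 907, 838 and 907 CPM in WTCKD + RNLS. It was 1033 to 1254 CPM in WTSHAM, 1017 to 1203 CPM in KOCKD and 972 to 986 CPM in KOCKD + RNLS. Their part in the results was not tested.

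Against WTSHAM, WTCKD had 2.3% of all genes called, 0.599% higher and 1.7% lower, and in 22.5% of genes the groups did not overlap. None of the 7 genes was called, and in 2 of them, Maob and Slc22a3, the groups did not overlap. Between KOCKD and WTCKD no gene was called (0% of those tested, with 1318 genes at an unadjusted p under 0.05 and 10 at an adjusted p under 0.05 by DESeq2), and the groups did not overlap in 19.3% of all genes and in 2 of the 7, Maoa and Maob. With 3 libraries against 3, an exact permutation test of a single gene cannot go below p = 0.1, so that the fit across all genes was used throughout.

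The study's methods call a gene by its fold change, more than 0.32 on the log2 scale in either direction, with an unadjusted p under 0.05. Under that rule 11.3% of all genes were called in WTCKD against WTSHAM, and of the 7 these were Maoa and Slc22a3 (higher) and Drd2 (−1.84 on the log2 scale, unadjusted p = 0.0316). In WTCKD + RNLS against WTCKD 14.4% of all genes were called, and of the 7 the same 3 genes, each in the opposite direction. The 2 comparisons share the WTCKD libraries. In KOCKD + RNLS against KOCKD 22.3% were called, and of the 7 Adra1a and Drd2 (higher) and Adra1b (lower). In KOCKD against WTCKD 5.62% were called, and of the 7 Maoa alone (−0.51), and for the interaction 15.2%, again with Maoa alone.

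Most close relatives of these genes had group means of a few CPM or less. Adra1d, the third α1-adrenoceptor, had group means from 4.68 ± 1.3 CPM (KOCKD + RNLS, n = 3) to 6.30 ± 0.21 CPM (WTCKD + RNLS), with a log2 change of −0.38 (SE 0.21, adjusted p = 0.228) in KOCKD + RNLS against KOCKD. Adra2b, an α2-adrenoceptor gene, had group means between 0.660 and 1.27 CPM. Adra2a, Adra2c and Adrb3 did not pass the filter on low counts, and their highest values in any library were 0.306, 1.14 and 0.437 CPM. Drd1 and Drd3 did not exceed 0.250 and 0.0918 CPM, so that Drd2 was the only dopamine receptor gene of this list that could be tested, and Drd4 and Drd5 were not analysed here.

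Of other transporters for monoamines, Slc29a4 had group means between 0.382 and 1.23 CPM, and Slc22a2 was at most 0.184 CPM in any library. The log2 change of Slc29a4 was −1.70 (SE 0.63, adjusted p = 0.141) in WTCKD + RNLS against WTCKD, which did not pass.

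Of the 5 markers of sympathetic neurons, Dbh alone was measured at a level that could be tested. Th, which encodes the rate-limiting enzyme of catecholamine synthesis, was at 0.254 CPM in WTCKD replicate 1 and had no read in the other 14 libraries. Slc6a2, the neuronal noradrenaline transporter, was at most 0.826 CPM. Dbh, which converts dopamine to noradrenaline and was the 1 of 5 markers of sympathetic neurons that passed the filter, had group means from 3.39 ± 2.1 CPM (WTCKD) to 7.45 ± 1.1 CPM (WTCKD + RNLS), with a log2 change of 1.14 (SE 0.44, adjusted p = 0.157) between them. The part of these nerve transcripts in the results above was not tested.

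In a wider view, 86 genes of catecholamine receptors, synthesis, uptake, degradation, transport, receptor signalling and protein kinase A targets, which include the 7, were followed as fixed lists. Of these, 83 were in the count table and 71 were tested. In WTCKD against WTSHAM 1 of the 71 was higher and none lower, in WTCKD + RNLS against WTCKD 2 were higher and 1 lower, and in KOCKD + RNLS against KOCKD 9 were higher and 4 lower. Set beside the shares of all genes given above, the last count is 18.3% of the list against 16.1% of all genes, and the median log2 change of the list was −0.004 against −0.009. Without the 4 libraries with the most Myl7, which leaves 1 WTCKD library, fewer genes were called in each of these comparisons, both in the list and over all genes. Without the 2 with intermediate Arntl the list counts were 2, 5 and 9, for which no count over all genes is given here. With length offsets the counts were 1, 9 and 4 (330, 738 and 710 over all genes), and by DESeq2 they were 5, 11 and 16 (577, 876 and 2389 over all genes), against 299, 582 and 2095 over all genes by edgeR. By edgeR no list gene passed in KOCKD against WTCKD or in the interaction. DESeq2 called none in the former and 3 in the latter, Akap6, Cacna1c and Pde4b, whose interactions by edgeR were 0.52 (adjusted p = 0.142), 0.54 (adjusted p = 0.140) and 0.83 (adjusted p = 0.127). In the joint test 24 of the 71 list genes passed by edgeR, where 22.2% of all genes did, and 30 by DESeq2, which called 3883 of all genes. Without the 4 libraries with the most Myl7 fewer passed, both in the list and over all genes. The list genes that did were Adra1a, Dbh and Rrad.

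**Figure D4:**
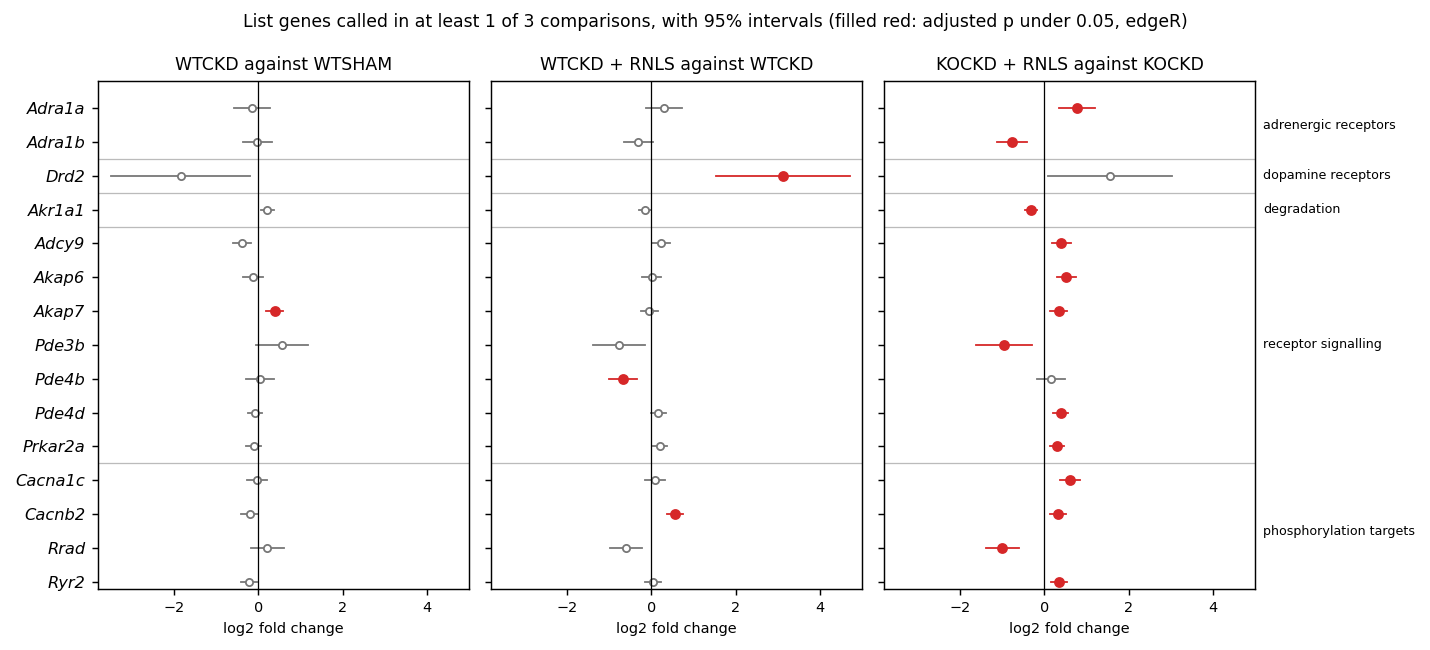
Log2 fold changes with 95% intervals (edgeR) of the list genes that had an adjusted p under 0.05 in at least 1 of 3 comparisons, one row per gene, grouped by list. Filled red points had an adjusted p under 0.05, 1 in the left panel, 3 in the middle and 13 in the right.

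Among the genes of receptor signalling, 5 of 32 rose and 1 fell in KOCKD + RNLS against KOCKD, which at 18.8% is near the 16.1% of all genes. Those that rose were Akap6 (0.53 on the log2 scale, SE 0.11) and Akap7 (0.34), which anchor protein kinase A, Prkar2a (0.31), a regulatory subunit of that kinase, Adcy9 (0.41), an adenylyl cyclase, and Pde4d (0.40), a phosphodiesterase that degrades cAMP. Another phosphodiesterase gene, Pde3b, fell by 0.95 on the log2 scale (SE 0.31, adjusted p = 0.0496). In the wild-type hearts Akap7 rose in WTCKD against WTSHAM (0.40, SE 0.10, adjusted p = 0.0402), from 34.8, 32.3 and 30.6 CPM to 42.9, 45.7 and 39.9 CPM, and Pde4b fell in WTCKD + RNLS against WTCKD by 0.67 (SE 0.16, adjusted p = 0.0250). Without the 4 libraries with the most Myl7, which leaves 1 WTCKD library, Akap7 was at 0.25 (adjusted p = 0.665) and Pde4b at −0.66 (adjusted p = 0.189), and neither passed. The call was lost for Akap7 also without 5 single libraries (adjusted p from 0.0551 to 0.131) and for Pde4b also without 5 (0.0517 to 0.120).

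Among the 11 targets of protein kinase A, 3 rose and 1 fell in KOCKD + RNLS against KOCKD, which is 36.4% of the list against 16.1% of all genes and is given as a description. Cacna1c, the pore-forming subunit of the cardiac L-type calcium channel, rose by 0.62 (SE 0.11, adjusted p = 0.00314), from 324, 302 and 324 CPM to 479, 501 and 481 CPM. Cacnb2, its β subunit, rose by 0.33 (adjusted p = 0.0231) and Ryr2, the calcium release channel of the sarcoplasmic reticulum, by 0.34 (adjusted p = 0.0182). Without the 4 libraries with the most Myl7 the calls of Cacnb2, Ryr2, Akap7, Adcy9, Pde3b and Prkar2a in this comparison were lost. Their log2 changes were then 0.30, 0.36, 0.33, 0.40, −0.92 and 0.24, in that order. The calls of Cacnb2 (0.29, adjusted p = 0.0774, edgeR), Akap7 (0.32, 0.0590), Pde3b (−0.93, 0.0501) and Prkar2a (0.24, 0.0711) were also lost without the 2 libraries with intermediate Arntl. Under both settings the change of Prkar2a was smaller than with all libraries, while the others named were about as large. Rrad, a small GTPase that holds back the calcium channel, fell by 0.99 on the log2 scale (SE 0.18, adjusted p = 0.00326), from 425, 349 and 356 CPM to 210, 208 and 149 CPM. In WTCKD + RNLS against WTCKD Cacnb2 rose by 0.56 (SE 0.09, adjusted p = 0.00372), and Rrad was at −0.59 (SE 0.18, adjusted p = 0.0763) and did not pass. The interactions of both genes did not pass (adjusted p = 0.362 for Cacnb2 and 0.434 for Rrad). The call of Cacnb2 in wild-type hearts was lost without the 4 libraries with the most Myl7 (0.60, adjusted p = 0.142). Of the 10 degradation genes, only Akr1a1, an aldehyde reductase, was called in KOCKD + RNLS against KOCKD, lower by −0.32 (SE 0.07, adjusted p = 0.00667).

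All 9 list genes that rose in KOCKD + RNLS, Adra1a among them, had long gene models, from 4973 bases (Prkar2a) to 53295 bases (Pde4d), against a median of 3631 over the genes tested. When a trend on gene length was removed from each library, none of the 9 kept an adjusted p under 0.05. The log2 changes were then −0.03 for Akap7, −0.04 for Pde4d, −0.015 for Ryr2 and 0.09 for Cacnb2. They were 0.13 for Adcy9, 0.17 for Akap6, 0.21 for Prkar2a, 0.27 for Cacna1c and 0.44 for Adra1a. Of the 4 that fell, Adra1b and Rrad kept it, with −0.80 (adjusted p = 0.0130) for Adra1b, and Akr1a1 (1414 bases) and Pde3b did not. The change of Akr1a1 went from −0.32 to −0.10, while that of Pde3b went from −0.95 to −1.07 with an adjusted p of 0.0529. The count of all genes called fell from 2095 to 710 under the same setting. Gnas and Grk5 gained a call. In WTCKD + RNLS against WTCKD the calls of Drd2, Cacnb2 and Pde4b did not change with it, and 6 further list genes gained one (Adcy6, Grk5, Pde3a, Pde4a, Pln and Prkaca). Of the 13 genes called in KOCKD + RNLS against KOCKD, 6 (Adra1b, Rrad, Akap6, Cacna1c, Pde4d and Akr1a1) kept the call without any 1 of the 6 libraries compared, and the other 7 lost it without at least 1.

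A further 10 list genes passed the joint test only, none of which passed it without the 4 libraries with the most Myl7. They include Mybpc3 (adjusted p = 0.00819) and Tnni3, sarcomere proteins that protein kinase A phosphorylates, Prkaca, its catalytic subunit, Adcy4 and Adcy6, adenylyl cyclases, Grk5 and Arrb1, which desensitise receptors, Rgs4, which shortens G protein signals, and Pts, an enzyme of tetrahydrobiopterin synthesis. The adjusted p of the genes named ran from 0.00819 to 0.0375.

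For each of the 7 genes the 3 genes with the most similar course over the 15 libraries were found by Pearson's r of log2 CPM, which is given as a description, since the libraries share their groups, clock state and length trend. Adra1b was closest to Lingo3 (0.95), Birc5 (0.92) and Klhdc8a (0.91), and Adra1a to Mpp5 (0.92), Mbd6 (0.91) and Sap130 (0.89). Drd2 was closest to Pcp4 (0.95), Dnajc18 (0.92) and Gramd1b (0.91). The highest values were 0.88 for Slc22a3 (Rraga, then Rps6ka2 and Il2rg), 0.85 for Maoa (Soat1, then Panx2 and Fads2), 0.82 for Adrb1 (Adora1, then Ptgir and Tardbp) and 0.78 for Maob (Golga7b, then Rmdn3 and Poll).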

How the data were processed

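Heart RNA of 15 mice was sequenced after poly(A) selection with a stranded kit, on HiSeq instruments of 2 types with 2 read lengths, and which library was run on which is not given in the sources used here. The authors trimmed reads with Trimmomatic, mapped them with HISAT2, and deposited raw read counts per gene from HTSeq and FPKM per library from Cufflinks. FPKM equalled count divided by a fixed gene length and the library total within 1% for 100% of 187831 values, and this length served as gene length. The strand option, annotation and versions are not given in the sources used here. The methods name mm9 and the submitters' processing notes GRCm39. Of 17447 symbols, 15048 match the mm9 annotation (GENCODE M1) and 17332 RefSeq GRCm38.p6, so the mm9 positions may not be those of the models counted. No exon of the 7 genes overlaps another gene's in GENCODE M1.

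Counts were scaled by TMM (factors 0.925 to 1.05), filtered (minimum count 10, total 15) and fitted with edgeR 4.0.16 in R 4.3.3, with a term for group alone, in 1 model of the 15 libraries, and Benjamini-Hochberg adjustment over 13021 genes. CPM are TMM-scaled. Standard errors were taken from the log2 fold change and its F. The tests were checked on simulated data. Sequences came from RefSeq (5 of the 7 genes matched). The members, lists and tests were chosen with earlier results of these data known, and the 2 sets of libraries left out (Myl7 over 300 CPM, Arntl between 5 and 15 CPM) after seeing the data. Named genes were all 7 members, their paralogs, list genes called in at least 1 of 6 tests, and the 3 genes of highest r for each member. Dbh, Th, Slc6a2, the clock and the marker genes were named for context after their values were seen. The labels do not say more of the replicates than that they are separate mice, and replicates of a group differed beyond sampling noise. The renalase transcript was not analysed here, and some list and marker genes are not reported here. Alternatives were no filter, RLE factors, replicate block, only the libraries compared, DESeq2 1.42.0, gene length offsets (lowess span 0.3), leaving out each library, and the call rule of the study. Python 3.11.15 with pandas 2.3.3 and matplotlib 3.10.9 was used for sequences and figures.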

Additional observations from a re-analysis of the deposited data

How the results depend on the processing

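Of 686 values recomputed for the 7 genes, 629 kept their direction and side of the threshold, 17 lost the call, 13 gained it and 27 changed sign. The signs that changed were of values that passed no test, and the cause was not tested. Adrb1 in KOCKD + RNLS against KOCKD was at 0.015 with length offsets, 0.018 without the 4 libraries richest in atrial transcripts, 0.012 without the 2 with intermediate clock gene levels and −0.13 to 0.053 without single libraries. In KOCKD against WTCKD it was at −0.057, −0.017 and −0.062 to 0.12 under the last 3 of these. Adra1a in KOCKD against WTCKD was at −0.55 to 0.019 without single libraries. Adra1b in WTCKD against WTSHAM was at 0.26 without the 4 libraries and −0.24 to 0.15 without single ones, and in KOCKD against WTCKD at −0.14 without the 4, −0.037 without the 2 and −0.037 to 0.090 without single libraries. Maob in KOCKD + RNLS against KOCKD was at 0.0071 with no filter, 0.092 with length offsets, 0.023 without the 4 and 0.016 without the 2, and at −0.060 to 0.042 without single libraries.

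The counts of all genes called moved as follows. In WTCKD against WTSHAM (299) they were 99 with only the libraries compared, 577 by DESeq2, 72 without the 4 libraries, 1470 by the study's call rule and 136 to 380 without single libraries. In WTCKD + RNLS against WTCKD (582) they were 380, 876, 47, 1874 and 209 to 761 in the same order. In KOCKD + RNLS against KOCKD (2095) they were 710 with length offsets, 1007 without the 4 libraries and 862 to 1476 without single ones. In KOCKD against WTCKD (0) they were 5 with no filter, 4 with RLE factors, 1 with the replicate block, 2 with only the libraries compared, 10 by DESeq2, 3 without the 2 libraries, 732 by the study's rule and 0 to 3 without single libraries. The interaction (0) gave 374 by DESeq2, 1981 by the study's rule and 0 to 2 without single libraries. The joint test (2887) gave 789 without the 4 libraries and 1740 to 3727 without single ones.

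No pairing of the samples by replicate number was seen, as the correlation of their deviations ran from −0.36 to 0.33 over 30 pairs and was over 0.1 in 5. With 3 libraries a group, this check cannot exclude a pairing. With the replicate block the counts were 253, 522, 1909 and 2417 in the joint test, Akap7 in WTCKD against WTSHAM and Pde3b in KOCKD + RNLS against KOCKD lost the call, and in the joint test Adcy4, Prkar2a and Tnni3 lost it and Adra1a gained it (adjusted p = 0.0390). Drd2 had the fewest reads, 5 to 154 a library, and the widest spread between animals. Leaving out a library leaves 2 in its group.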
